A study of Mus musculus with 6 samples.

Results

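The genes described here encode the BCL2 family, the proteins that decide whether the outer mitochondrial membrane is opened during apoptosis. The 10 members were Bcl2, Bcl2l1 and Mcl1 (anti-apoptotic), Bax and Bak1 (effectors), Bid, Bad, Bik and Bcl2l11 (BH3-only) and Bcl2l15. A probe set is a group of short probes summarised as 1 value per array. A member was measured where a probe set carried its symbol and no other in the platform annotation. Of the 10 members, 9 were measured, among 12393 genes in all. Bax had no such probe set and was not analysed here. Where a gene had several probe sets, the values given are from the 1 with the highest average level across all 6 arrays.

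In healthy cells the anti-apoptotic proteins hold the effectors and the BH3-only proteins in check. BH3-only proteins are switched on by stress or by loss of growth factor signals, and they free or activate Bax and Bak, which then form pores and release cytochrome c to start the caspases. In the mammary gland this balance is known for its part in the removal of secretory epithelium after weaning. STAT3 is known to activate Bcl2l1 and Mcl1 in many cells, and FOXO factors, which AKT restrains, to activate Bcl2l11.

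Total RNA came from mouse mammary tumors after 21 days of treatment. The vehicle group held 3 samples and the drug group held 3 samples from mice given VX680 (it inhibits Aurora kinases), miltefosine (a phospholipid analog known to inhibit AKT signalling) and WP1066 (it inhibits JAK2 and STAT3) in combination. No sample was given a drug of the 3 alone, so their effects cannot be told apart. Strain, tumor model, age and doses were not given in the labels used here, and neither is whether each tumor came from its own mouse. The p-values therefore reflect the scatter among these 6 samples, part of which may be technical. RNA of each tumor was read on 1 Affymetrix mouse array. The deposited values are on the log2 scale, where a difference of 1 is a doubling, and their precision is limited by the small number of arrays.

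The arrays had medians of 6.70 to 6.73 and correlated with one another at 0.991 to 0.997 over all probe sets (a correlation across features of an array). The labelled tissue had its defining transcripts at high levels: the casein gene Csn2 had means of 13.89 in both groups, and Krt8, a keratin of simple epithelium, had 12.48 in vehicle and 12.57 in drug-treated tumors. Skeletal muscle transcripts varied between arrays within both groups and overlapped between them, with list means of 6.62 to 10.13 in vehicle and 4.72 to 9.23 in drug-treated tumors, highest in vehicle replicate 3 and drug replicate 1. All 18 measured muscle markers had lower means in drug-treated tumors, with a median log2 difference of -1.88 and overlapping groups in each. The adipocyte, endothelial and fibroblast list means also overlapped between groups. In these bulk samples fewer cells of a type and less RNA per cell cannot be told apart.

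The comparison asked whether the classes of the family differed with treatment. Bcl2l15 had a higher mean in drug-treated tumors, by 1.58-fold, and Bcl2l11, the gene of the BH3-only protein Bim, had a lower mean, by 1.22-fold. In both genes the 3 drug arrays lay apart from the 3 vehicle arrays. The other 7 measured members had log2 differences between -0.06 and 0.07, all with overlapping groups. No member passed the threshold: by limma with Benjamini-Hochberg adjustment over all 12393 genes, 0 of 9 members and 0% of all genes reached an adjusted p under 0.05. At an unadjusted p under 0.05 there was 1 member higher and 1 lower, against 5.37% of all genes higher and 4.91% lower. Groups did not overlap for 1 member in the higher and 1 in the lower direction, against 7.73% of all genes higher and 9.37% lower, so the members' shares rest on 1 gene each. With vehicle replicate 1 left out 5 members had groups without overlap, and with drug replicate 2 left out 4 had, where 25.9% and 27.9% of all genes were without overlap in either direction.

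**Figure D1:**
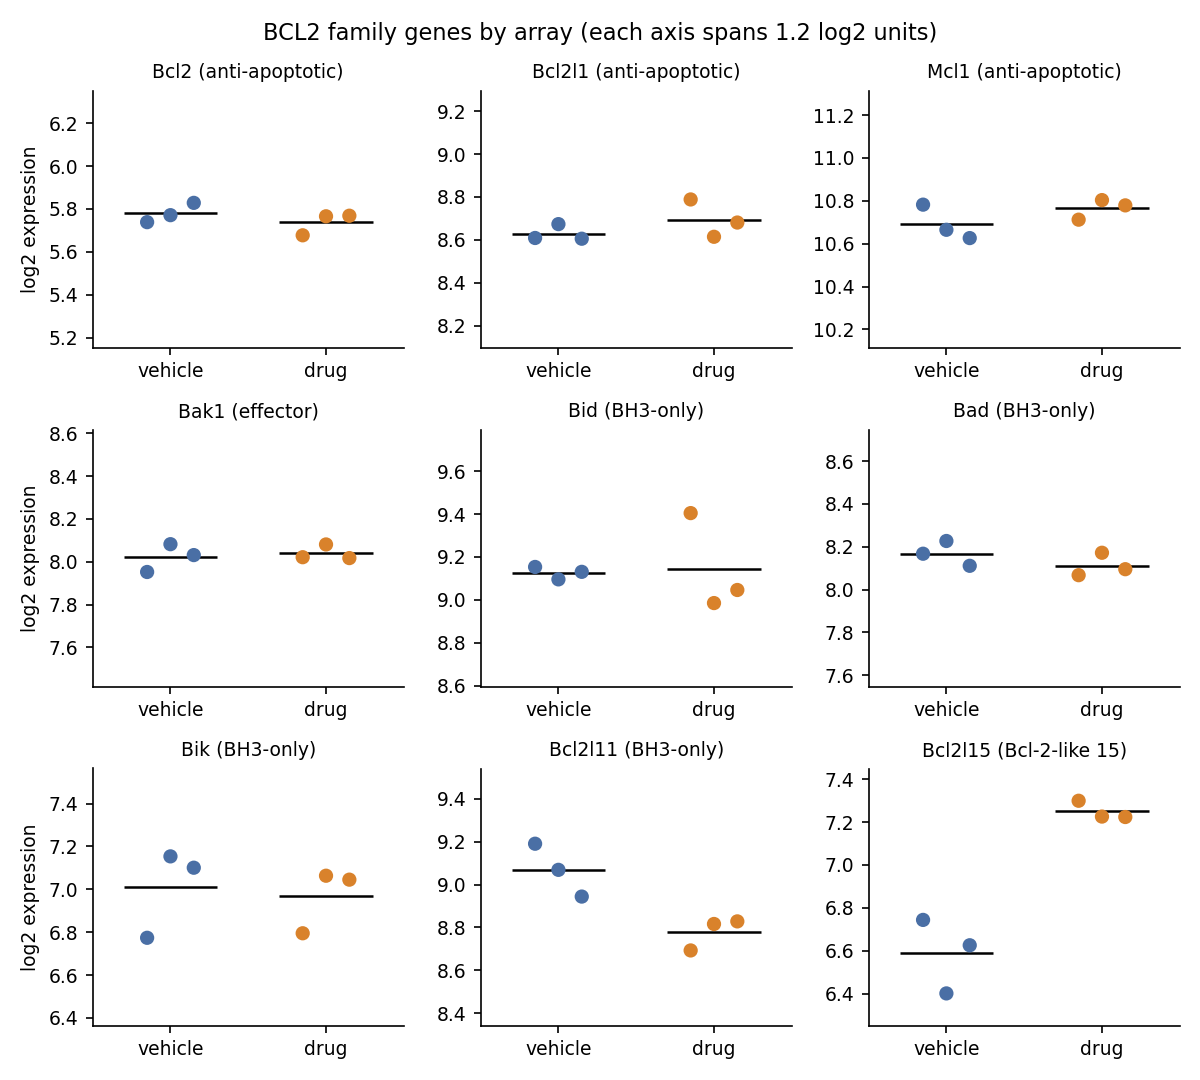
Log2 expression of the 9 measured members in each array, with vehicle on the left and drug on the right of each panel. Points are arrays, lines are group means, and every vertical axis spans the same 1.2 log2 units. The groups are apart for Bcl2l11 (8.94 and above in vehicle, 8.83 and below in drug) and for Bcl2l15 (6.74 and below in vehicle, 7.22 and above in drug), and overlap in the other 7 panels.

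Bcl2l15, also called Bfk, encodes a BCL2 family protein described as weakly pro-apoptotic when overexpressed. Its values were 6.74, 6.40 and 6.63 in the vehicle arrays and 7.30, 7.23 and 7.22 in the drug arrays. Every drug array lay above every vehicle array, and the drug arrays lay closer together than the vehicle arrays. The log2 difference was 0.66 ± 0.09 (SE, n = 3 arrays each), with a 95% confidence interval of 0.43 to 0.89 before adjustment for the number of genes. The limma unadjusted p was 0.000299 and the adjusted p was 0.231, the smallest adjusted p in the data, which 18 genes shared. By unadjusted p the gene ranked 14 of 12393, and 1.4% of genes had a larger difference in either direction. Bcl2l15 had 1 probe set, so no other probe set of the gene could be set against it.

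Marker lists of the epithelium were set beside Bcl2l15 as descriptions, and 0 of their genes passed limma at an adjusted p. For 10 of 17 basal and squamous epithelial markers the drug arrays all exceeded the vehicle arrays, against 7.73% of all genes, and 4 of the 17 had lower means in drug-treated tumors. The list's mean level was 6.90 to 7.24 in vehicle and 7.48 to 7.78 in drug-treated tumors. For 6 of 16 luminal and secretory mammary markers the drug arrays also all exceeded the vehicle arrays, and for 1, Foxa1, they all lay below. The 6 include Pgr, with a vehicle mean as low as 2.72, and Csn1s1, with a difference of 0.06. The other 9 had overlapping groups, among them Krt8, Krt18, Epcam and Gata3. That list had 4 lower means, and list means of 9.90 to 10.01 in vehicle and 10.03 to 10.15 in drug-treated tumors. The part of these lists in the difference of Bcl2l15 was not tested. With the skeletal muscle score as a covariate the difference of Bcl2l15 was 0.72, and with vehicle replicate 3 and drug replicate 1 left out together it was 0.65.

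Bcl2l11 encodes Bim, a BH3-only protein that binds all the main anti-apoptotic family members. Its values were 9.19, 9.07 and 8.94 in the vehicle arrays and 8.69, 8.82 and 8.83 in the drug arrays. Every drug array lay below every vehicle array, with vehicle replicate 3 and drug replicate 3 closest to each other. The log2 difference was -0.29 ± 0.08 (SE, n = 3 arrays each), with a 95% confidence interval of -0.48 to -0.10 before adjustment for the number of genes. The limma unadjusted p was 0.00992 and the adjusted p was 0.378, and 6.73% of all genes had a larger difference in either direction.

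The 5 probe sets of Bcl2l11 had differences of one sign and of unequal size. In the limma fit over all probe sets, the probe set with the second highest level, at 8.37 in vehicle, had a log2 difference of -0.32 ± 0.09 (SE, n = 3 arrays each), and another, at 5.63, had -0.18 ± 0.06. Together with the chosen probe set these were the 3 of 5 whose groups did not overlap, against 8.91% of all 20380 probe sets in the lower direction. The 5 read the same gene in the same 6 arrays and are not separate results. The 2 other probe sets, at vehicle means of 6.55 and 5.18, had differences of -0.08 ± 0.11 and -0.02 ± 0.15 with overlapping groups. The difference of the gene therefore depended on the probe set: with the mean of all 5 it was -0.18 (limma adjusted p = 0.527), and with the most variable probe set it was -0.02 (adjusted p = 0.982). The smallest adjusted p of Bcl2l11 over its alternatives was 0.256.

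**Figure D2:**
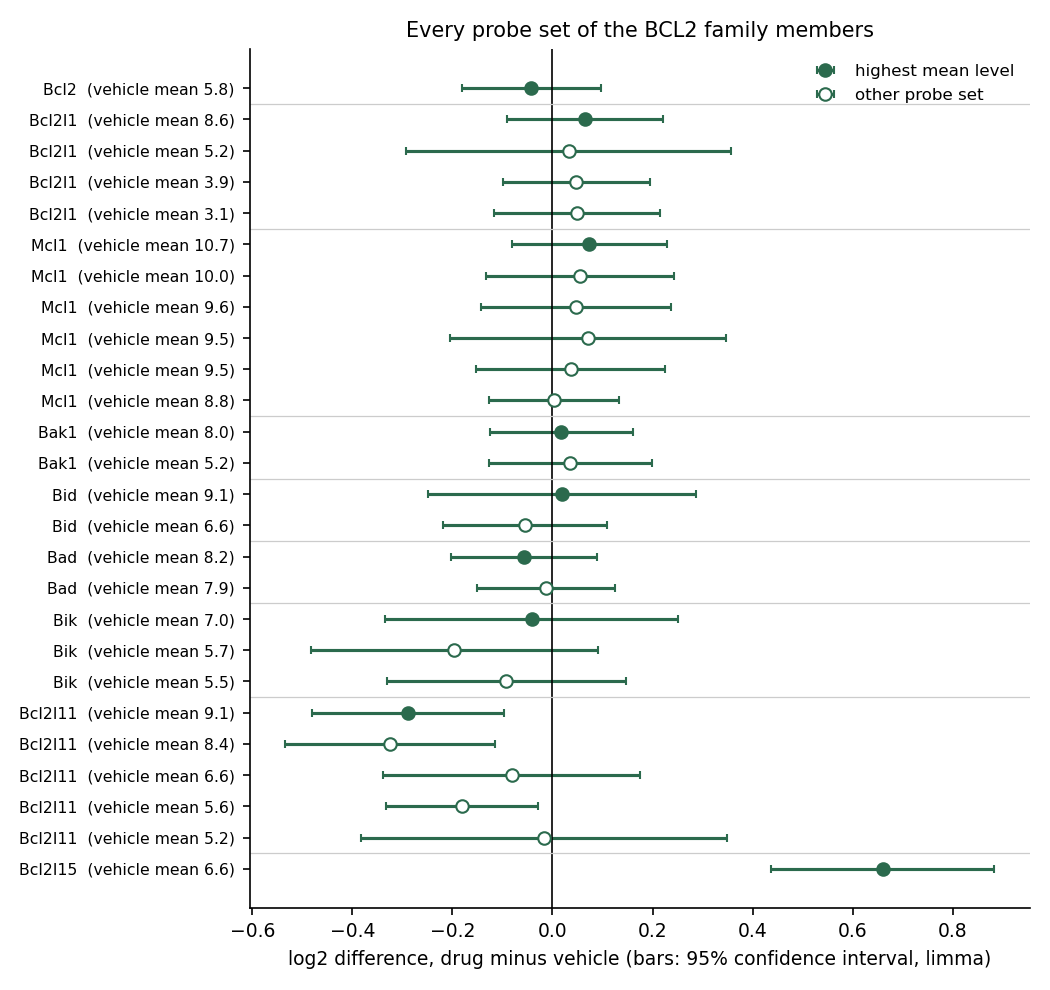
Log2 difference, drug minus vehicle, of all 26 probe sets of the 9 measured members, with 95% confidence intervals from limma. Filled points are the probe set with the highest mean of each gene, open points the others, and the vehicle mean stands beside each name. The 5 probe sets of Bcl2l11 lie below 0, between -0.32 and -0.02, the 6 of Mcl1 and the 4 of Bcl2l1 lie above 0 by at most 0.07, and those of Bid lie on both sides.

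Immune and proliferation marker lists were set beside Bcl2l11 in the same way, and again 0 of their genes passed limma at an adjusted p. For 3 of 10 B and plasma cell markers the drug arrays all lay below the vehicle arrays, against 9.37% of all genes. The list's mean level was 4.84 to 5.29 in vehicle and 4.28 to 4.49 in drug-treated tumors. The 3 were Igha, Jchain and Pou2af1, at -1.93, -1.84 and -0.91, the last with a vehicle mean as low as 3.81. The other 7 had overlapping groups, and 1 marker of the list had a higher mean. For 3 of 14 T and NK cell markers the drug arrays all lay below the vehicle arrays, with list means of 4.98 to 5.10 and 4.84 to 4.91. For 3 of 13 macrophage and myeloid markers they did so, with list means of 8.63 to 9.03 and 8.49 to 8.69, which overlap. In each of the latter 2 lists 3 markers had higher means in drug-treated tumors, and no list was tested against the share of all genes. For 8 of 9 proliferation markers all drug arrays lay below all vehicle arrays, with list means of 9.91 to 9.98 and 9.58 to 9.85. The part of these lists in the difference of Bcl2l11 was not tested. With the skeletal muscle score as a covariate the difference of Bcl2l11 was -0.35, and with vehicle replicate 3 and drug replicate 1 left out together it was -0.31.

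**Figure D3:**
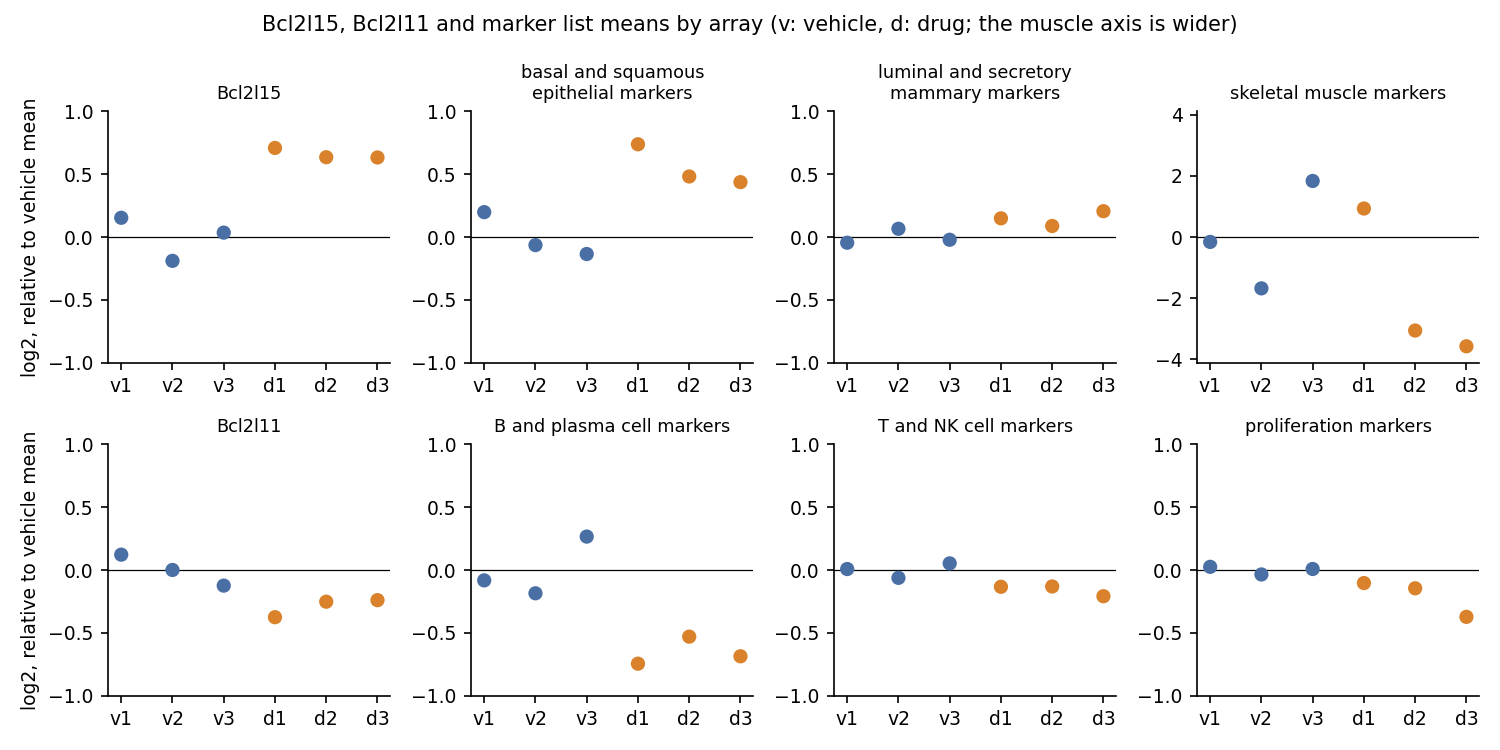
Log2 level by array of Bcl2l15, Bcl2l11 and the means of 6 marker lists, each relative to its mean over the 3 vehicle arrays (v1 to v3 are vehicle replicates, d1 to d3 drug replicates). The basal and squamous, luminal, B and plasma cell, T and NK cell and proliferation list means do not overlap between groups, while the skeletal muscle mean, drawn on a wider axis, varies within both groups and is highest in v3 and d1.

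Among the anti-apoptotic members no difference exceeded the spread between arrays. Bcl2, the founding member, had values of 5.74, 5.77 and 5.83 in the vehicle arrays and 5.68, 5.77 and 5.77 in the drug arrays, a log2 difference of -0.04 ± 0.06 (SE, n = 3 arrays each). Bcl2l1, whose main product is Bcl-xL, had 8.61, 8.67 and 8.61 in the vehicle arrays and 8.79, 8.61 and 8.68 in the drug arrays, a difference of 0.07 ± 0.06. Mcl1, a short-lived survival protein, had 10.78, 10.66 and 10.63 in the vehicle arrays and 10.71, 10.80 and 10.78 in the drug arrays, a difference of 0.07 ± 0.06. Drug replicate 1 was the highest array for Bcl2l1 and the lowest for Bcl2, and vehicle replicate 1 stood above the other vehicle arrays for Mcl1. Single arrays moved these small differences without turning their sign. Bcl2 had -0.01 without drug replicate 1 and -0.02 without vehicle replicate 3, Bcl2l1 had 0.02 without drug replicate 1 and 0.11 without drug replicate 2, and Mcl1 had 0.12 without vehicle replicate 1 and 0.04 without vehicle replicate 3.

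The 95% confidence intervals before adjustment ran from -0.18 to 0.09 for Bcl2, from -0.09 to 0.22 for Bcl2l1 and from -0.08 to 0.22 for Mcl1. They thus leave room for changes of about those sizes in either direction. All 4 probe sets of Bcl2l1 (0.03 to 0.07) and all 6 of Mcl1 (0.0033 to 0.07) had higher means in drug-treated tumors, with overlapping groups in each. Of the Bcl2l1 probe sets, 2 had vehicle means of 3.89 and 3.12, where signal may be near background.

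The effector Bak1, which forms pores in the outer mitochondrial membrane, had values of 7.95, 8.08 and 8.03 in the vehicle arrays and 8.02, 8.08 and 8.02 in the drug arrays. The groups overlapped almost wholly. The log2 difference was 0.02 ± 0.06 (SE, n = 3 arrays each), with a 95% confidence interval of -0.12 to 0.15, and its other probe set had 0.04. Leaving out vehicle replicate 1 gave -0.02, leaving out drug replicate 2 gave -0.0027, and leaving out vehicle replicate 2, drug replicate 1 or drug replicate 3 gave 0.03 to 0.05. Bak1 was the 1 effector measured, so the effector class could not be described beyond it.

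The other BH3-only members had overlapping groups. Bid, which caspase-8 cleaves to link death receptors to mitochondria, had values of 9.15, 9.10 and 9.13 in the vehicle arrays and 9.40, 8.98 and 9.05 in the drug arrays, a difference of 0.02 ± 0.11 (SE, n = 3 arrays each). Drug replicate 1 lay above all vehicle arrays and the other drug arrays lay below them, so that the difference without drug replicate 1 was -0.11. The other probe set of Bid had -0.05. Bad, which is held inactive by phosphorylation through AKT and other kinases, had 8.17, 8.23 and 8.11 in the vehicle arrays and 8.07, 8.17 and 8.10 in the drug arrays, a difference of -0.06 ± 0.06. Bik, a BH3-only protein of the endoplasmic reticulum, had 6.77, 7.15 and 7.10 in the vehicle arrays and 6.80, 7.06 and 7.05 in the drug arrays, a difference of -0.04 ± 0.12. Replicate 1 was the lowest array of Bik in both groups. Without vehicle replicate 1 or drug replicate 1 the difference of Bik was -0.16 or 0.04, and that of Bad was -0.03 when either vehicle replicate 2 or drug replicate 1 was left out and -0.09 when either vehicle replicate 3 or drug replicate 2 was. All 3 probe sets of Bik (-0.20 to -0.04) and both of Bad (-0.06 and -0.01) had lower means in drug-treated tumors.

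By class, the median log2 difference was 0.07 for the 3 anti-apoptotic members, 0.02 for Bak1 and -0.05 for the 4 BH3-only members, beside -0.0054 for all genes. The median of the BH3-only members relative to their vehicle means was 0.01, 0.03 and -0.03 in the vehicle arrays and -0.16, -0.07 and -0.08 in the drug arrays. For the anti-apoptotic members it was -0.02, -0.01 and -0.02 in the vehicle arrays and 0.02, -0.01 and 0.05 in the drug arrays. These class values are descriptions without a test. Without drug replicate 1 the anti-apoptotic median was 0.02, without vehicle replicate 3 it was 0.04, and without vehicle replicate 1, vehicle replicate 2 or drug replicate 2 the BH3-only median was -0.11, -0.01 or -0.09.

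Changes of pro-apoptotic relative to anti-apoptotic members were taken within each array, which compares changes and not levels. Of 15 such pairs 4 had groups that did not overlap, all lower in drug-treated tumors: Bcl2l11 relative to Mcl1 by -0.36, relative to Bcl2l1 by -0.35 and relative to Bcl2 by -0.25, and Bad relative to Mcl1 by -0.13, all on the log2 scale. Each of these 4 had p = 0.1 in a two-sided exact permutation test, the smallest p that 3 against 3 arrays allow, and adjusted p = 0.375 over the 15 pairs (exact permutation test). The 3 pairs of Bcl2l11 share its values, and the groups of Bcl2l11 taken alone were already apart. These pairs are therefore not separate from one another or from the result of that gene. With 3 against 3 arrays, 10% of comparisons are expected to be without overlap by chance, in either direction. With all probe sets of a gene averaged, the changes of Bcl2l11 were -0.23 relative to Mcl1, -0.23 relative to Bcl2l1 and -0.14 relative to Bcl2, and that of Bad relative to Mcl1 was -0.08.

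**Figure D4:**
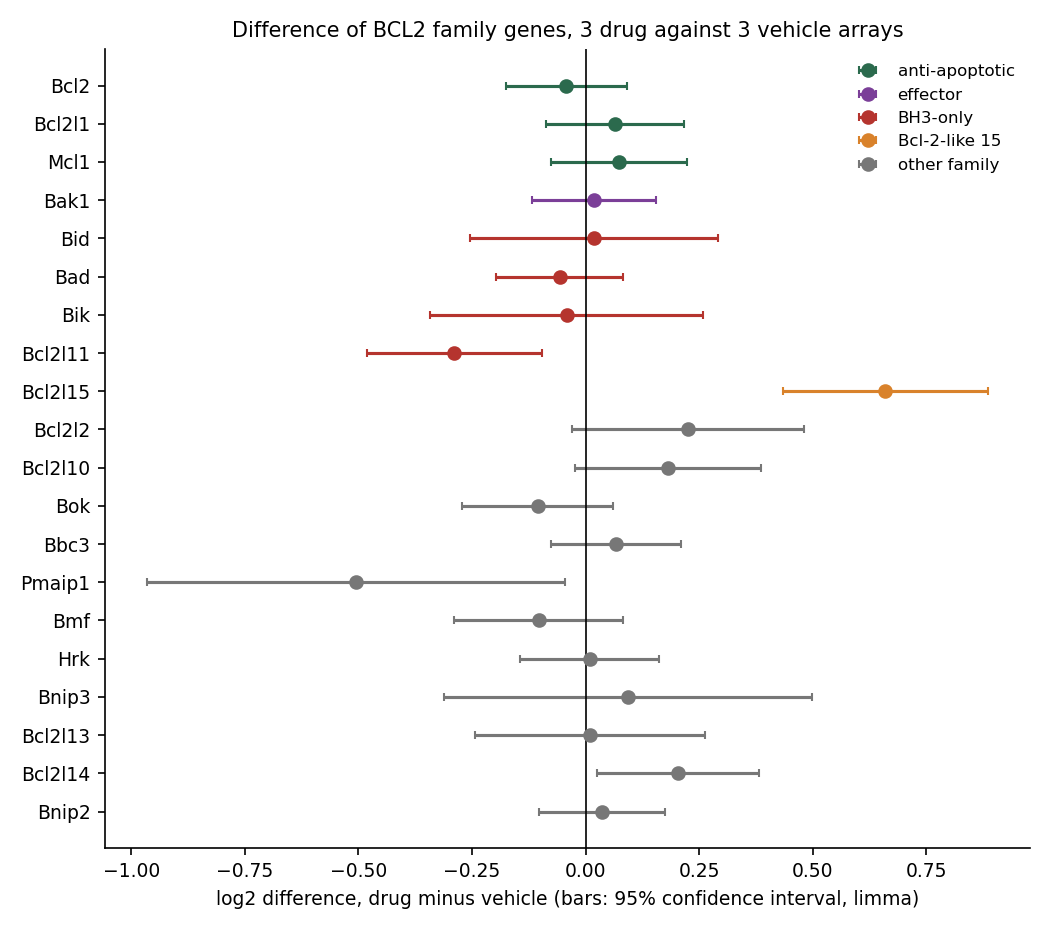
Log2 difference, drug minus vehicle, of the 9 measured members and of 11 other BCL2 family genes, with 95% confidence intervals from limma before adjustment for the number of genes. Colors mark the classes. Bcl2l15 (0.66), Bcl2l11 (-0.29), Pmaip1 (-0.51) and Bcl2l14 (0.20) have intervals that leave out 0, and none of these genes passed after adjustment.

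Of 16 other BCL2 family genes 11 were measured, with a median log2 difference of 0.04. Bcl2a1a, Bcl2a1b, Bcl2a1d, Bnip3l and Bcl2l12 were not measured. By limma 0 of them had an adjusted p under 0.05, and at an unadjusted p under 0.05 there was 1 higher and 1 lower, against 5.37% and 4.91% of all genes. Pmaip1, the gene of the BH3-only protein Noxa, had values of 7.43, 7.27 and 7.07 in the vehicle arrays and 6.73, 7.12 and 6.39 in the drug arrays. Its groups overlapped, since drug replicate 2 lay above vehicle replicate 3. The difference was -0.51 ± 0.19 (SE, n = 3 arrays each, limma unadjusted p = 0.0359, adjusted p = 0.466). Bcl2l14, which encodes the family member Bcl-G, had 6.46, 6.33 and 6.52 in the vehicle arrays and 6.73, 6.56 and 6.63 in the drug arrays, with no overlap. Its difference was 0.20 ± 0.07 (limma unadjusted p = 0.0305, adjusted p = 0.454), and its other probe set, at 3.98 in vehicle, had 0.04.

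Bcl2l2, whose product Bcl-w is anti-apoptotic, had a difference of 0.23 ± 0.11 (SE, n = 3 arrays each) with overlapping groups. All 4 of its probe sets had higher means in drug-treated tumors (0.12 to 0.32). The one with the largest difference, at 6.18 in vehicle, had 0.32 ± 0.12 and groups without overlap, and the others overlapped. Bok, a further family member of the effector type, differed by -0.11 ± 0.07, with the drug arrays all below the vehicle arrays. Bbc3, the gene of the BH3-only protein Puma, differed by 0.07 ± 0.06, and the BH3-only genes Bmf and Hrk by -0.10 ± 0.08 and 0.01 ± 0.06. Bnip3, a mitophagy receptor induced by hypoxia, differed by 0.09 ± 0.17, and Bcl2l13, Bnip2 and Bcl2l10 by 0.01 ± 0.10, 0.04 ± 0.06 and 0.18 ± 0.08, the last with a vehicle mean as low as 3.10. At the chosen probe sets the groups overlapped for all of these except Bok.

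The apoptosome and caspase list had 16 of 18 genes measured. Of these, 0 passed limma at an adjusted p and 0 at an unadjusted p under 0.05. At that unadjusted p, 5.37% of all genes were higher and 4.91% lower. The median difference of the list was 0.03, and its members lay between -0.17 and 0.13. The genes with the smallest unadjusted p were Parp1, a DNA repair enzyme cleaved by caspases, at -0.11 ± 0.06 with no overlap, and the caspase genes Casp12 and Casp4 at -0.12 ± 0.07 and -0.17 ± 0.11 with overlapping groups (SE, n = 3 arrays each). Of 8 inhibitor of apoptosis genes 1, Birc3, had an unadjusted p under 0.05, against 5.37% of all genes higher and 4.91% lower. Birc3 had -0.15 ± 0.06 with no overlap, where 9.37% of all genes were without overlap in the lower direction. Birc5, the gene of survivin, differed by -0.10 ± 0.09 and Naip6 by 0.14 ± 0.11. The other probe sets of Parp1 (-0.06 and -0.02) and of Birc3 (-0.06) had overlapping groups.

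In the death receptor pathway 12 of 13 genes were measured, with a median of 0.04. At an unadjusted p under 0.05 there was 1 higher and 1 lower, against 5.37% and 4.91% of all genes. Casp8, the initiator caspase that cleaves Bid, had a difference of -0.18 ± 0.06 (SE, n = 3 arrays each) with the drug arrays all below the vehicle arrays. Fasl, the ligand of Fas, had 0.16 ± 0.06 with no overlap, with a vehicle mean as low as 3.57, while its other probe set, at 2.64 in vehicle, had 0.0085 ± 0.13 with overlap. Fas had -0.16 ± 0.07 with overlap. Of 29 measured partners and modifiers of BCL2 proteins 1 had an unadjusted p under 0.05, against 5.37% of all genes higher and 4.91% lower. That gene was Sfn, a 14-3-3 protein of stratified epithelium, at 0.33 ± 0.09, which is also among the basal and squamous markers. Bag1, a co-chaperone that binds Bcl2, and Bclaf1 differed by 0.11 ± 0.05 and -0.12 ± 0.06, both without overlap. Of the 29 genes, 2 were without overlap in the higher and 3 in the lower direction, against 7.73% and 9.37% of all genes.

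Of 23 measured transcription factors that regulate BCL2 family genes, 3 were higher and 2 lower at an unadjusted p under 0.05, against 5.37% and 4.91% of all genes. By limma 0 passed at an adjusted p, and the median was 0.01. Klf4, a factor of epithelial differentiation, had a difference of 0.63 ± 0.09 and Foxo1, a FOXO factor, of 0.27 ± 0.05 (SE, n = 3 arrays each). Irf8, a factor of myeloid and B cells, had -0.42 ± 0.07. The groups of all 3 did not overlap. In the list, 6 genes were without overlap in the higher and 2 in the lower direction. The shares of all genes were 7.73% and 9.37%, and the difference from them was not tested. Of the 4 probe sets of Foxo1, 3 had higher means and 1, at 4.02 in vehicle, had -0.07. The groups overlapped in every probe set of Foxo1 except the chosen one. The other FOXO genes of the list had lower means in drug-treated tumors, with overlapping groups. Foxo3 had -0.11 ± 0.08, with all 3 probe sets lower, and Foxo4 had -0.16 ± 0.07. Both probe sets of Klf4 and both of Irf8 had the sign of the chosen one and groups without overlap. None of the adjusted p-values of Klf4, Foxo1 and Irf8 was below 0.231 by limma.

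**Figure D5:**
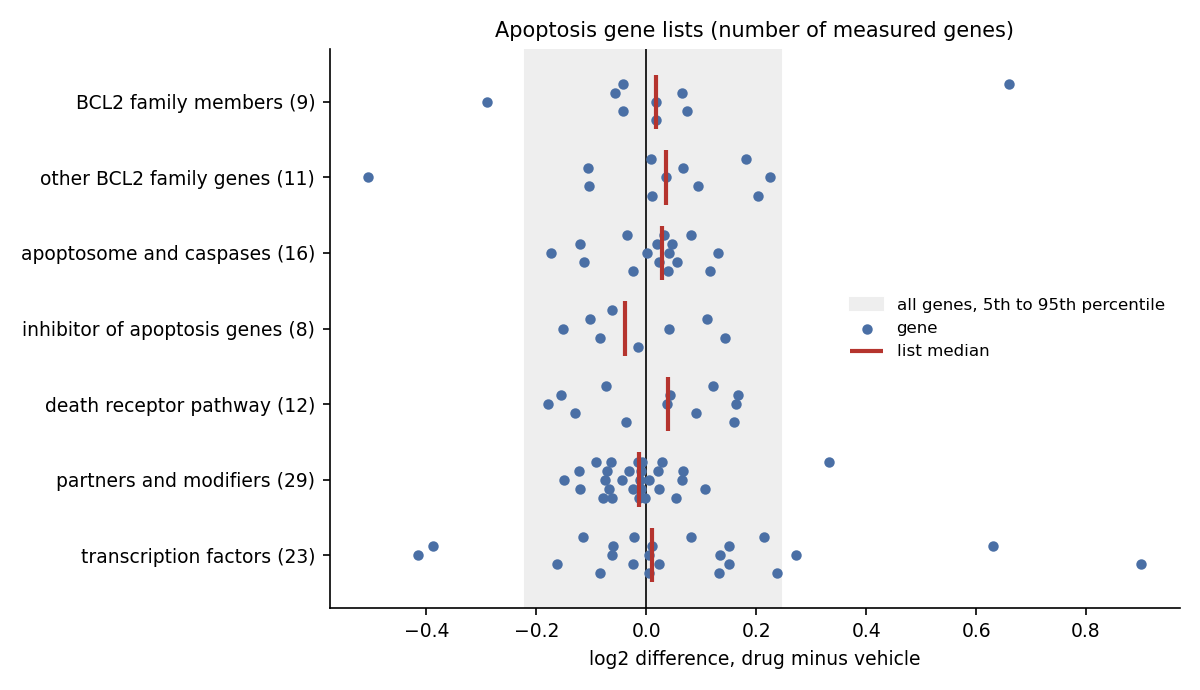
Log2 difference, drug minus vehicle, of each measured gene in 7 lists of the apoptosis pathway, with the list median as a red line and the range from the 5th to the 95th percentile of all 12393 genes in grey. The list medians lie between -0.04 and 0.04, and Bcl2l15, Bcl2l11 and Pmaip1 are the BCL2 family genes outside the grey range.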

How the data were processed

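The authors deposited 1 log2 value per probe set and array, for 22690 probe sets in 3 vehicle and 3 drug arrays, made with Affymetrix Expression Console per the submitters' processing notes. How it summarised probes and scaled arrays is not stated in those notes. The values were taken as log2 because of their range and were not normalized again, since the array medians already matched. Such matching would remove any shift common to most transcripts. Presence calls were not used here.

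Names came from the array platform's annotation, in which 20380 probe sets had 1 symbol, 691 several and 1555 none, and 64 were controls. Genes with several probe sets took the one with the highest mean. Groups were compared with the limma package, version 3.58.1, under R 4.3.3 (lmFit with eBayes at default settings, two-sided, no filter, no covariate), with Benjamini-Hochberg adjustment over 12393 genes and a threshold of 0.05. Confidence intervals use the moderated SE. The procedure was tested on simulated data.

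The members, lists and alternatives were chosen with earlier results of these data known. The text names all members, all other BCL2 family genes and, per further apoptosis list, up to 3 genes with the smallest unadjusted p. Foxo3 and Foxo4 are named in addition, beside Foxo1. Marker genes are named where a result turns on them. Alternatives were other rules for the probe set, a minimum mean of 5, a shift to equal medians, quantile normalization, array weights, a trended and robust eBayes, a skeletal muscle or adipocyte score as covariate, each array left out in turn, and vehicle replicate 3 and drug replicate 1 left out together. Figures were drawn with matplotlib 3.10.9.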

Additional observations from a re-analysis of the deposited data

How the results depend on the processing

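By limma, 0 of 9 members passed the adjusted threshold under each of the 16 alternatives, and 0 genes in all passed except without drug replicate 2, where 3 did (range 0 to 3 with 1 array left out). The difference of Bcl2l15 stayed above 0 in all 16, from 0.57 to 0.74, with adjusted p from 0.0935 to 0.468, and that of Bcl2l11 stayed below 0 in all 16, from -0.35 to -0.02, with adjusted p from 0.256 to 0.982. With the mean of all probe sets or the most variable probe set, 1 member had an unadjusted p under 0.05 and 1 had groups without overlap, in place of 2. With 1 array left out, 2 to 5 members had groups without overlap. There were 5 without vehicle replicate 1, which adds Bcl2, Bik and Mcl1, and 4 without drug replicate 2, which adds Bcl2l1 and Bad. Fewer arrays overlap less, and the share of all genes was 25.9% and 27.9% in these cases.

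Differences near 0 changed sign in 4 members. Bid had -0.018 with the mean of its probe sets, -0.00068 with array weights, and -0.11 both without drug replicate 1 and without vehicle replicate 3 and drug replicate 1 together. With those 2 arrays left out, Bcl2 had 0.012 and Bik 0.090. With 1 array left out, Bid ranged from -0.11 to 0.099, Bik from -0.16 to 0.045 and Bak1 from -0.017 to 0.048. Bcl2 ranged from -0.063 to -0.012, Bcl2l1 from 0.018 to 0.11, Mcl1 from 0.041 to 0.12 and Bad from -0.087 to -0.028, with no change of sign. The class medians ranged from 0.018 to 0.067 for anti-apoptotic and from -0.11 to -0.012 for BH3-only members. The causes were not tested. With all probe sets averaged or 1 array left out, the within-array change of Bcl2l11 relative to the anti-apoptotic members was below 0. Its 21 values ran from -0.41 to -0.14. The other alternatives were not applied to the pairs. Among them, the most variable probe set gave -0.02 for Bcl2l11 and -0.04 for Bcl2, so Bcl2l11 was not lower relative to Bcl2 there. The 84 values of the other pairs lay on both sides of 0. No paired analysis was possible because the labels give no replicate numbers. With 3 arrays a group, a difference as small as those of the other 7 members could not be told from 0.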

Other observations

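The genes that neighbour the 2 members with separate groups were looked up in the RefSeq gene order of GRCm38.p6, a choice made after the values were seen. Around Bcl2l11, the nearest measured gene before it was Bub1, a spindle checkpoint kinase, with 1 unmeasured gene between them. Bub1 had a log2 difference of -0.33 ± 0.09 (SE, n = 3 arrays each, limma unadjusted p = 0.00774, adjusted p = 0.369). The nearest measured gene after it was Anapc1, a subunit of the anaphase-promoting complex, at -0.15 ± 0.05 (limma unadjusted p = 0.0347, adjusted p = 0.463). In both, all drug arrays lay below all vehicle arrays, as they did for 9.37% of all genes. Whether position on the chromosome has a part in these differences was not tested. The next genes outward, Mall and Mertk, had -0.11 ± 0.07 and 0.02 ± 0.22 with overlapping groups. Bub1 is also among the proliferation markers, and for 8 of 9 of those all drug arrays lay below all vehicle arrays. Around Bcl2l15, the measured neighbours Ap4b1, Dclre1b, Ptpn22 and Rsbn1 had differences of -0.02 ± 0.07, 0.08 ± 0.07, -0.05 ± 0.08 and 0.08 ± 0.09, all with overlapping groups.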
